A study of Mus musculus with 2 samples.

Results

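The 8 genes described here were chosen by their higher expression in macrophages and monocytes of pancreatic tumors after insufficient irreversible electroporation (iIRE) in these same data, so the iIRE-to-control difference in macrophage/monocyte-like cells is what put them together and is described without a test. They are Ly6c2, Plac8, Ly6a, Hp, Slfn4, Vcan, Fn1 and F13a1, and all 8 were found by symbol among the 32285 genes of the count matrix. The question for each gene was whether more cells carried its RNA or whether each carrying cell held more of it. The tumors were KPC pancreatic cancer cells grown in the pancreas of C57BL/6 mice (males, aged 5 to 7 weeks) and treated at a diameter of 7 to 9 mm. The iIRE library was made from residual tumors 3 days after treatment. The control library came from tumors that the study calls untreated in its text and, in its methods, sham-operated by needle insertion. Cells were captured with a droplet kit that reads the 5′ end of each transcript and counts each molecule by its identifier (UMI). How many animals went into a library is not given in the sources used here, so every comparison is between 1 iIRE library and 1 control library, no p value can be given, and every interval below is a 95% interval for counting error only.

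Irreversible electroporation opens lasting pores in the membranes of tumor cells, and an insufficient field leaves living tumor at the margin. In mice, inflammatory (classical) monocytes leave the blood for injured tissue carrying high Ly6C, and they lose it as they become macrophages. Ly6c2 encodes that surface protein, Plac8 is a small cysteine-rich protein of myeloid cells, and Slfn4 is a myeloid member of the Schlafen family. Ly6a encodes Sca-1, a surface protein of stem cells, endothelium, lymphocytes and many tumor cells that interferons raise. Hp is haptoglobin, which binds free hemoglobin. Vcan (versican) and Fn1 (fibronectin) belong to the provisional matrix of wounds, and F13a1 is the catalytic subunit of coagulation factor XIII, which cross-links fibrin and is also made by tissue macrophages.

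In GRCm38 (the mm10 build of the files, GENCODE annotation), Ly6c2 lies on chr15:75108158-75111970 (minus strand), beside its near-copy Ly6c1 on chr15:75044018-75048830 and Ly6a on chr15:74994877-74998031. Plac8 lies on chr5:100553725-100572245, Hp on chr8:109575128-109579172, Slfn4 on chr11:83175186-83190216, Vcan on chr13:89655312-89742509, F13a1 on chr13:36867178-37050244 and Fn1 on chr1:71585520-71653200. All 8 are protein-coding genes.

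Ly6c2 and Ly6c1 are shown because the monocyte result rests on telling them apart. The stretches of 250 bases before the first listed RefSeq start (build GRCm38.p6, minus strand) lie at chr15:75111972-75112221 for Ly6c2 and chr15:75048838-75049087 for Ly6c1, with every match to GAGGAAGT, a core bound by PU.1-type factors of myeloid cells, in capitals:
Ly6c2: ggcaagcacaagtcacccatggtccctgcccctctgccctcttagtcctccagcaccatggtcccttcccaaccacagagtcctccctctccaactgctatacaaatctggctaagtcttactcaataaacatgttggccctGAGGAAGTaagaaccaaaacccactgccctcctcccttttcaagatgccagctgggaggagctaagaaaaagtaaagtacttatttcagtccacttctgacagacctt
Ly6c1: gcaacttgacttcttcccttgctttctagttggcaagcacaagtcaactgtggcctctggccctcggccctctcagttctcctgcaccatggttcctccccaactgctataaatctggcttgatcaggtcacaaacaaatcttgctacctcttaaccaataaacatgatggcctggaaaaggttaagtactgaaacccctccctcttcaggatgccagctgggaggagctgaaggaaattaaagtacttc
The stretches shared 75.9% of 216 aligned bases. GAGGAAGT, searched on both strands, occurred once in the Ly6c2 stretch and not in the Ly6c1 stretch, and 2.44% of 32851 such stretches hold it. The table also lists a later start for each gene, and the stretches before those (not printed) held 2 matches for Ly6c2 and 1 for Ly6c1. The transcripts themselves are closer, with 97.6% identity over 822 aligned bases and a longest identical run of 188 bases, so reads inside such runs cannot be given to either gene.

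Slfn4 and Plac8 are shown as members of the myeloid set whose first listed stretch holds none of the motifs searched, as was also so for F13a1 and Vcan. Their stretches lie at chr11:83174936-83175185 (plus strand) and chr5:100572206-100572455 (minus strand):
Slfn4: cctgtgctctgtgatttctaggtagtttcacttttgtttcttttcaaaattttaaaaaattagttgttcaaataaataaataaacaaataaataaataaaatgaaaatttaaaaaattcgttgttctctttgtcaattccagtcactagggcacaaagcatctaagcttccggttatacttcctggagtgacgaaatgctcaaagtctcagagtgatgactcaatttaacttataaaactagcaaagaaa
Plac8: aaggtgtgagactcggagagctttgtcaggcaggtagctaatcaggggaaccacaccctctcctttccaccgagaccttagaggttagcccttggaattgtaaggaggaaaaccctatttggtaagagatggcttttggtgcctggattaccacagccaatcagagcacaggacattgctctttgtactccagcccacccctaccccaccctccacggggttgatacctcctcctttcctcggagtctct
Besides GAGGAAGT, the search covered GAAANNGAA (interferon-response type, held by 7.13% of stretches), TTCNNNGAA (STAT type, 7.02%) and TTGCNNAA (C/EBP type, 9.56%), on both strands. No match to these 3 occurred in the first listed stretch of Ly6c2, Plac8, Slfn4, F13a1 or Vcan. The stretch before a later Plac8 start (not printed) held 1 C/EBP-type match, and that before a later F13a1 start held none. Ly6a, Hp and Fn1 were not in the promoter table.

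After filtering, 15991 iIRE cells and 15274 control cells were kept, and 291 of their barcode sequences occurred in both libraries. The clusters were built without the 8 genes. The macrophage/monocyte-like class was 1 cluster of 950 iIRE cells and 975 control cells, with median depths of 5749.5 and 6574 UMIs. Dendritic-like cells numbered 64 and 140, neutrophil-like cells 145 and 142, and osteoclast-like cells 235 and 155 in the iIRE and control libraries. Cancer-like cells numbered 11740 and 6984. A further 1709 iIRE cells (10.7% of the library) and 5722 control cells (37.5%) were left unnamed. In their clusters the summed markers lay under 25% of the richest cluster of the class, or markers of another type or neutrophil granule genes led. This loss was uneven, so the cancer-like comparisons cover unlike parts of the libraries.

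Ly6c2, the gene that defines inflammatory monocytes, had the largest log2 ratio after adding 10 CPM, part of what it was chosen for, among the 9740 genes counted in macrophage/monocyte-like cells (at least 50 UMIs over both libraries). Rarer genes such as Ins2 had larger plain folds. It held 2020 of the UMIs of iIRE cells, or 342 CPM (UMIs scaled to the class total of the library), against 762 UMIs and 111 CPM in control cells, a fold of 3.08 (2.83 to 3.35). Plac8 held 1982 UMIs (335 CPM) in iIRE cells and 929 UMIs (135 CPM) in control cells, 2.47-fold higher. Both genes also differed in the share of cells that carried them, with Ly6c2 in 150 iIRE and 80 control cells and Plac8 in 252 and 192 before depth was made equal.

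Ly6a followed at 293 CPM in iIRE cells and 130 CPM in control cells, a fold of 2.26 (2.08 to 2.45). Haptoglobin transcripts were rarer, at 78.1 CPM in iIRE cells and 37.6 CPM in control cells, 2.08-fold higher (1.78 to 2.43). Slfn4 had 46.5 CPM in iIRE cells and 21.6 CPM in control cells, and Vcan had 256 UMIs (43.3 CPM) and 137 UMIs, 2.17-fold higher.

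The matrix genes with the most RNA behaved otherwise. Fn1 had 1988 CPM in iIRE cells and 1881 CPM in control cells, a fold of 1.06 (1.03 to 1.08). F13a1 was lower in the iIRE library, at 618 CPM against 697 CPM in control cells, a fold of 0.887 (0.849 to 0.926). On the log2 scale after adding 10 CPM, 6 of the 8 genes passed 1.2-fold upward and none passed it downward, in a class where 7.23% of all genes passed upward and 3.78% downward. Since the genes were chosen on this difference, nothing is read from that count. Past 2-fold upward stood 3 members, Ly6c2, Plac8 and Ly6a, and 0.0719% of all genes.

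**Figure D1:**
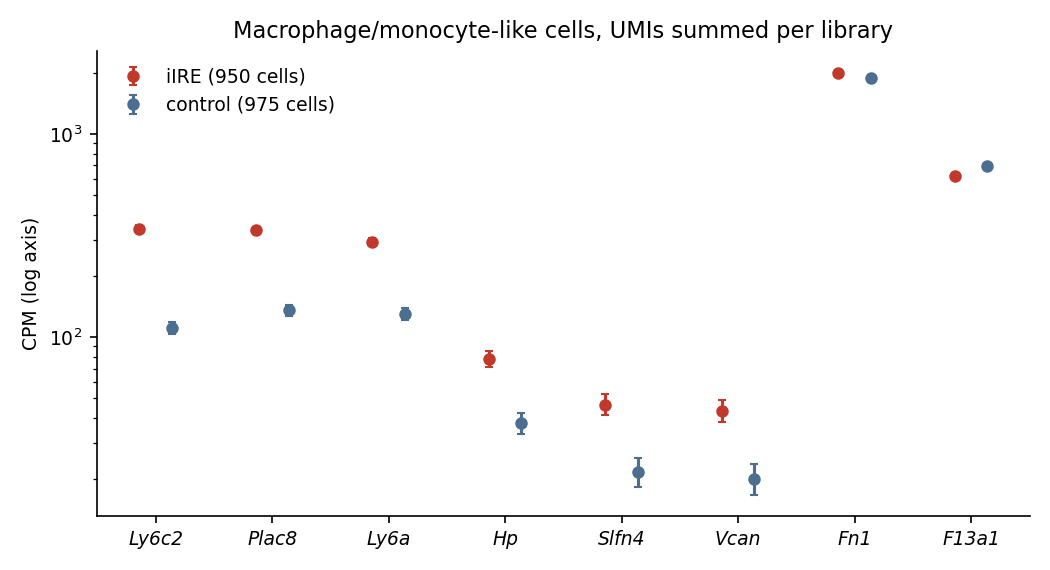
Summed level of each of the 8 genes in macrophage/monocyte-like cells (CPM, log axis) in the iIRE library (red) and the control library (blue), with exact Poisson 95% intervals as bars. Ly6c2 stood at 342 and 111 CPM, while Fn1 (1988 and 1881 CPM) and F13a1 (618 and 697 CPM) lay almost level.

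The 12 genes with the largest log2 ratio in this class held 6 of the members. The other 6, named after their values were seen, were Ins2, Cxcl13, Gm35769, G530011O06Rik, Clu and Lcn2. Ins2, the insulin gene of islet cells, had 113 UMIs in iIRE cells and 3 in control cells. Each of these had at most 150 UMIs in the iIRE cells.

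Number of cells and level per cell were separated after every cell was thinned to 2000 UMIs, which left 902 iIRE cells and 919 control cells. Ly6c2 was seen in 122 iIRE cells (13.5%, 11.4 to 15.9%) and in 60 control cells (6.53%, 5.02 to 8.32%), a share 2.07-fold higher. Each cell with the gene held a mean of 5.54 UMIs in the iIRE library and 4.98 in the control library, a level 1.11-fold higher. On the log2 scale the share made up 87.3% of the Ly6c2 difference, and the gene was seen in more cells at a nearly equal level in each. Without thinning the Ly6c2 level was 1.41-fold higher, and the share made up 65.4%.

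Plac8 differed in both measures at this depth. It was seen in 180 iIRE cells and 109 control cells (a share 1.68-fold higher), at 4.11 UMIs per carrying cell in the iIRE library and 2.99 in the control library (1.37-fold). Cells with 5 or more thinned Plac8 UMIs numbered 63 in the iIRE library and 23 in the control library. Ly6a was seen in 19.4% of iIRE cells and 13.1% of control cells (1.49-fold), at 3.14 UMIs per carrying cell against 2.49 in control cells (1.26-fold). The share made up 62.1% of the Plac8 difference and 63.0% of the Ly6a difference. For Plac8 this depended on the depth, since at 1000 UMIs the share made up 95.1% (level 1.03-fold) and that of Ly6c2 85.4% (level 1.15-fold), so the order of these genes turned.

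The rarer genes were seen in more iIRE cells. Hp was seen in 64 iIRE cells and 43 control cells, at 2.27 and 1.98 UMIs per carrying cell. Slfn4 was seen in 61 iIRE cells and 37 control cells, at 1.49 and 1.35 UMIs. Vcan was seen in 54 iIRE cells and 24 control cells, at 1.44 and 1.21 UMIs. For Slfn4 and Vcan a carrying cell held little more than the single UMI that makes it count, so little can be read from their level per cell. For Hp the division depended on the depth, and without thinning the share was 1.28-fold and the level 1.43-fold higher (share part 40.9%).

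Fn1 and F13a1 were carried by most or many cells of both libraries. Fn1 was seen in 74.4% of iIRE cells and 74.5% of control cells, at 5.63 UMIs per carrying cell against 4.89 in control cells. The log2 ratio of the Fn1 level, 0.20, ranged from -0.08 to 0.24 over 6 alternatives, so its direction depended on the setting. F13a1 was seen in 47.1% of iIRE cells and 48.9% of control cells, at 2.64 UMIs against 2.97 in control cells. The share of cells with either gene was thus nearly equal between the libraries.

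As a rough sign of free RNA, cancer-like cells were thinned in the same way. Ly6c2, which these cells should not make, was seen in 1.19% of iIRE cells (137 of 11551) and 0.234% of control cells (16 of 6838). Slfn4 was seen there in 0.571% and 0.117%, and F13a1 in 3.31% and 1.42%. Every one of these shares lay far below the share in macrophage/monocyte-like cells of the same library. The shares were higher in the iIRE library, but they are not a clean measure of free RNA. Reads in runs identical to Ly6c1, which stood at 241 and 207 CPM in these cells, cannot be placed. The cancer-like cells of the libraries were also unlike sets. Cluster 0 held 5343 iIRE and 684 control cells, while cluster 1 (678 and 3835 cells) was left unnamed. The part of free RNA in the macrophage/monocyte-like difference was not tested. Marker lists of other cell types in the macrophage/monocyte-like cells gave a summed 645 CPM in the iIRE library and 611 CPM in the control library for neutrophils (16 genes, 5 past 1.2-fold higher and 1 lower), and 164 and 173 CPM for dendritic cells (18 genes, 2 higher and 5 lower). Acinar markers summed to 215 and 168 CPM (13 genes, 6 higher and 0 lower) and islet markers to 26.9 and 1.46 CPM (8 genes, 2 higher). The part of these cells in the result was not tested.

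**Figure D2:**
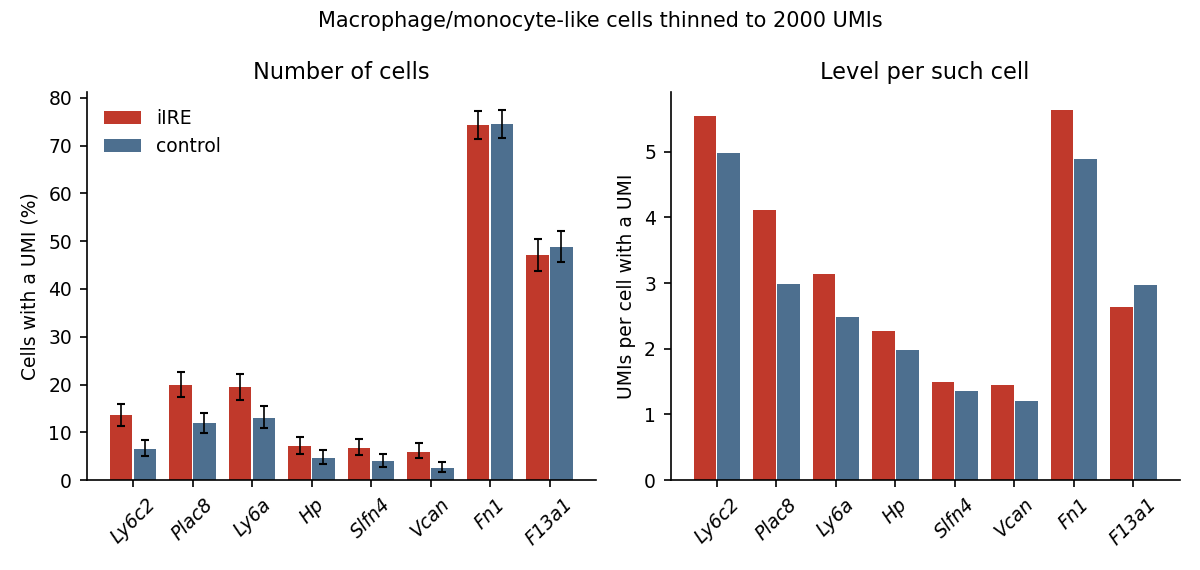
Macrophage/monocyte-like cells thinned to 2000 UMIs each: left, the share of cells with at least 1 UMI of each gene (%, bars with exact binomial 95% intervals), and right, the mean number of UMIs in those cells, for the iIRE library (red) and the control library (blue). Ly6c2 differed in share (13.5% and 6.53%) far more than in level (5.54 and 4.98 UMIs).

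Plac8, Ly6a, Hp, Slfn4 and Vcan were seen more often in cells with Ly6c2. Of the thinned cells with Ly6c2, 82.8% of 122 iIRE cells and 70.0% of 60 control cells also had Plac8, against 10.1% and 7.80% of the cells without Ly6c2. Hp was seen in 38.5% of the iIRE and 43.3% of the control Ly6c2 cells, and in 2.18% and 1.98% of the others. Slfn4 was seen in 39 of the 122 iIRE and 12 of the 60 control Ly6c2 cells, and in 2.82% and 2.91% of the others. Fn1 went the other way, with 55.7% of the iIRE and 53.3% of the control Ly6c2 cells against 77.3% and 76.0% of the others. F13a1 was seen in 38.5% of the iIRE and 51.7% of the control Ly6c2 cells, and in 48.5% and 48.7% of the others.

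Cells with 4 or more of the 8 genes numbered 110 in the iIRE library (12.2%) and 54 in the control library (5.88%). Cells with 5 or more numbered 62 and 20. Cells with none of the genes were fewer in the iIRE library, 71 against 107 in the control library.

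When the macrophage/monocyte-like cells were divided again, without the 8 genes, 14 subclusters appeared, and subcluster 3 was taken as the monocyte one. Its leading 50 genes held 9 of the 30 listed classical monocyte genes and none of the 25 macrophage differentiation genes. Ms4a4c, Chil3, Napsa and Ifitm6 were among its leading genes, its Ccr2 level was 600 CPM, and C1qa, a complement gene of mature macrophages, stood at 816 CPM against 1689 to 7665 CPM in the other subclusters. Subcluster 3 held 132 iIRE cells (13.9%, 11.8 to 16.3%) and 75 control cells (7.69%, 6.10 to 9.55%), a share 1.81-fold higher (1.35 to 2.43). The limit of 5 listed genes that makes a subcluster monocyte-led was set after the subclusters were seen. Subcluster 8 came close, with 4 listed classical monocyte genes and 0 macrophage differentiation genes among its leading 50. The listed classical monocyte genes summed to 34551 CPM there and to 41935 CPM in subcluster 3. With doublets kept, the monocyte-led share was 12.9% of iIRE and 10.7% of control cells, and with the 8 genes left in the clustering it was 144 of 985 iIRE cells and 126 of 1049 control cells. The cause of this change was not tested.

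Subcluster 3 held most of the Ly6c2 RNA of the class, 83.2% of the UMIs in the iIRE library and 80.3% in the control library. It held 73.7% and 67.4% of the Plac8 UMIs and 66.0% and 64.0% of the Hp UMIs. For Slfn4 the shares were 61.1% in the iIRE library and 37.8% in the control library, and for Vcan 54.7% and 32.8%. Only 10.3% and 4.40% of the Fn1 UMIs lay there, and 8.81% and 4.77% of the F13a1 UMIs.

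Within subcluster 3 the genes differed from each other. Ly6c2 had 2384 CPM in iIRE cells and 1564 CPM in control cells (1.52-fold, 1.39 to 1.67), and Plac8 had 2073 CPM and 1600 CPM (1.30-fold, 1.18 to 1.43). Ly6a had 809 CPM in iIRE cells and 248 CPM in control cells, 3.26-fold higher (2.63 to 4.09). Hp stood at 433 CPM in iIRE cells and 422 CPM in control cells, a fold of 1.03 (0.847 to 1.25). Slfn4 (238 and 143 CPM) and Vcan (199 and 115 CPM) were higher in iIRE cells, and F13a1 was lower at 457 CPM against 583 CPM in control cells. Past 1.2-fold, 5 of the 8 genes were higher, where 21.5% of the 3144 genes counted in these few cells were, and 1 was lower, where 17.5% were. The genes were chosen on the class that holds these cells, so nothing is read from these counts. The values within subcluster 3 moved with the clustering. With doublets kept and with the 8 genes left in, the log2 ratio of Ly6a was 0.52 and 0.65 in place of 1.67, that of Ly6c2 1.07 and 1.19 in place of 0.61, and that of F13a1 0.17 and 0.046 in place of -0.34, a turned direction. The log2 ratio of Hp, 0.04, ranged from -0.19 to 0.60 over 6 alternatives.

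After thinning, Ly6a was seen in 50.4% of 125 iIRE monocyte-led cells (41.3 to 59.5%) and 24.3% of 74 control ones (15.1 to 35.7%). Ly6c2 was seen in 70.4% of the iIRE and 54.1% of the control cells, Hp in 37.6% and 41.9%. The Ly6a share was 2.07-fold higher, and those of Slfn4 (30.4% and 14.9%) and Vcan (24.8% and 12.2%) were 2.05-fold and 2.04-fold higher. Fn1 (64.0% and 71.6%) and F13a1 (44.8% and 54.1%) were, like Hp, seen in a smaller share of iIRE cells. How many of all genes differ as much in share here was not counted, and the cells are not replicates.

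Another subcluster with a difference was number 9, led by the interferon-stimulated genes Ifit3, Rsad2 and Isg15, with 60 iIRE cells (6.32%) and 36 control cells (3.69%). Ly6c2 had 766 CPM in its iIRE cells and 181 CPM in its control cells, from 22 and 7 cells. Single cells gave 44 of the 236 iIRE UMIs and 23 of the 34 control UMIs. Plac8 had 695 and 309 CPM there, and Slfn4 211 and 107 CPM. Ly6a reached its highest level of the larger subclusters here, 1279 CPM in iIRE cells and 1188 CPM in control cells, a fold of 1.08 (0.910 to 1.27).

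Other subclusters held fewer iIRE cells. Subcluster 5, led by the MHC class II genes H2-Eb1, H2-Aa and H2-Ab1 and also high in Ccr2 (529 CPM), held 40 iIRE cells (4.21%) and 116 control cells (11.9%), a share of 0.354-fold (0.241 to 0.511). Subclusters 4 and 1 had shares of 0.535-fold and 0.624-fold. In subcluster 5 Plac8 had 321 CPM in iIRE cells and 92.7 CPM in control cells, Ly6a 442 and 403 CPM, and Ly6c2 171 and 82.1 CPM, so these genes were not limited to subclusters 3 and 9. Single iIRE cells gave 21 of the 41 Ly6c2 UMIs and 22 of the 77 Plac8 UMIs there. Before thinning, Ly6c2 was seen in 12.5% of the iIRE and 13.8% of the control cells, and Plac8 in 32.5% and 28.4%.

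Outside subcluster 3, Ly6c2 had 65.3 CPM in iIRE cells and 23.2 CPM in control cells, and Ly6a 223 and 122 CPM. There 6 of the 8 genes were past 1.2-fold higher, where 7.71% of the genes counted were. These cells are most of the class on which the genes were chosen, so nothing is read from that count. Proliferating cells (subcluster 2, led by Ube2c and Birc5) had 319 CPM of Ly6a in the iIRE library and 90.1 CPM in the control library. The high Hp of subcluster 10, 305 CPM in iIRE cells against 47.7 CPM in control cells, came largely from a single cell with 71 of the 96 UMIs. Without the cell richest in each gene in each library, 6 genes were past 1.2-fold, with Hp at a log2 ratio of 0.81.

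F13a1 peaked in subcluster 7, led by Lyve1, Cd163 and Vsig4, genes of tissue-resident macrophages. Its level there was 1689 CPM in 86 iIRE cells and 2368 CPM in 64 control cells, a fold of 0.713 (0.657 to 0.774). Fn1 peaked in subcluster 12, led by Saa3 and Serpinb2, at 6741 CPM in 20 iIRE cells and 5110 CPM in 26 control cells. The subclusters richest in these genes were thus not the one richest in Ly6c2.

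Weighting each subcluster by its share of UMIs, the change in subcluster shares accounted for 126 of the 231 CPM by which Ly6c2 was higher in the iIRE library (54.7%), and the levels within subclusters for 104 CPM. For Ly6a the shares accounted for 26.5% of a difference of 163 CPM. For Fn1, the shares pulled down by 29.1 CPM while the levels within subclusters added 136 CPM. The division is arithmetic on 1 library a group, and it rests on these 14 subclusters.

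**Figure D3:**
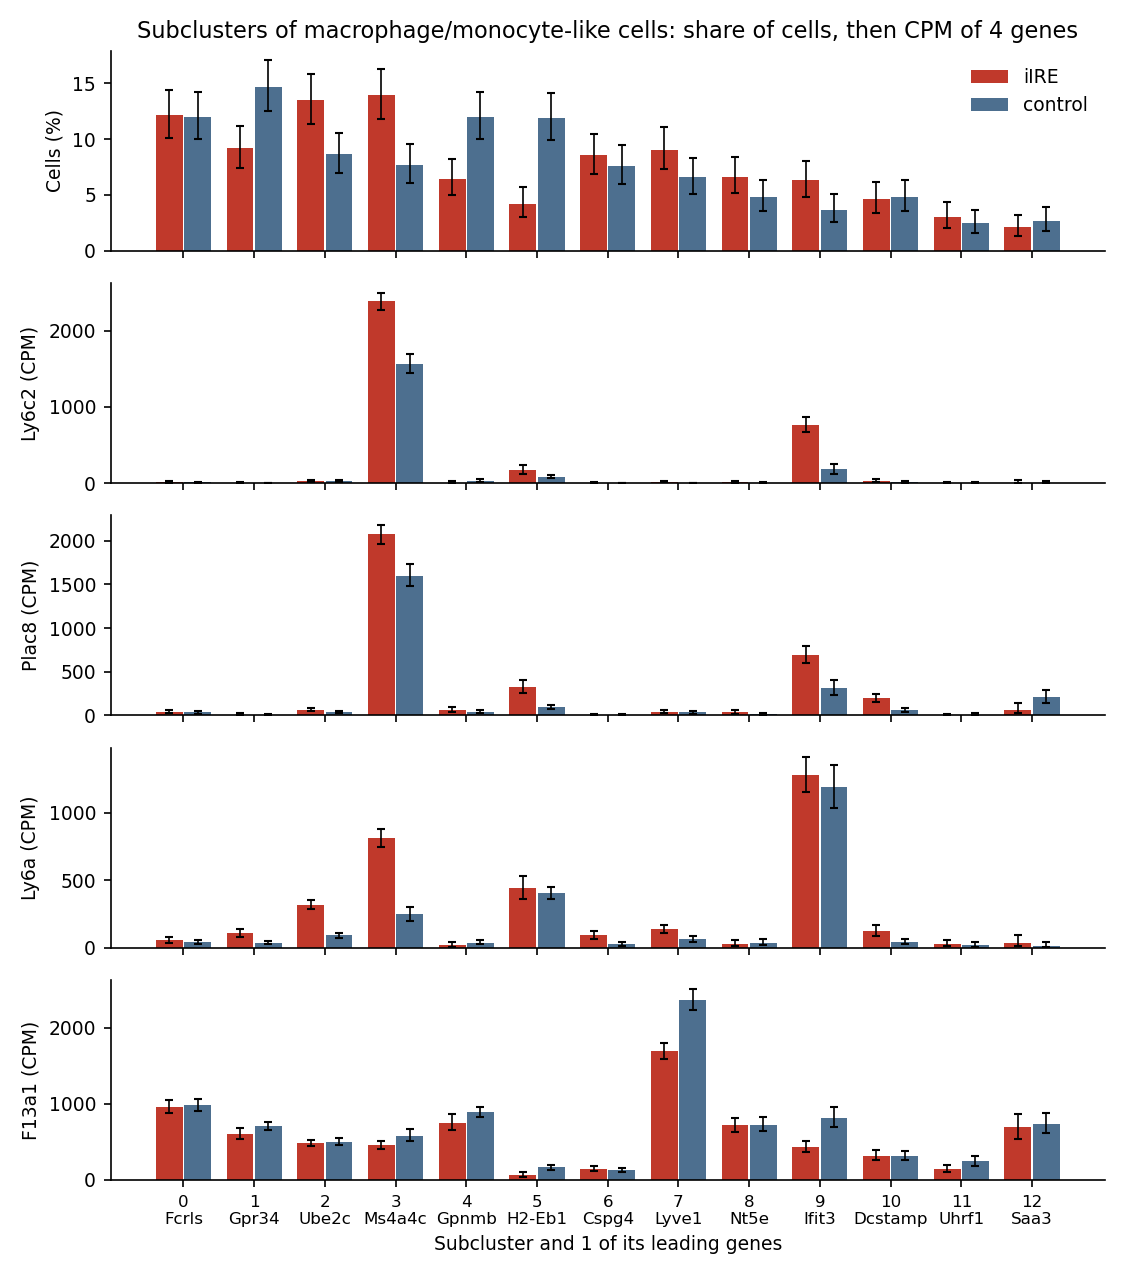
Subclusters of the macrophage/monocyte-like cells with 20 or more cells, each named with 1 leading gene: top, the share of each library's cells (%, exact binomial 95% intervals), and below, the CPM of Ly6c2, Plac8, Ly6a and F13a1 (exact Poisson 95% intervals), iIRE in red and control in blue. Subcluster 3 (Ms4a4c) held 13.9% and 7.69% of the cells and the highest Ly6c2 and Plac8 levels, whereas F13a1 peaked in subcluster 7 (Lyve1).

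Other genes of the monocyte program, from lists that hold no member, were measured beside them. Of 28 classical monocyte genes counted, 10 were past 1.2-fold higher and 1 lower, with a median log2 ratio of 0.12 against 0.03 over all genes. The 3 most abundant were Lyz2 (10225 CPM in iIRE cells and 10481 CPM in control cells), Ifitm3 (2008 and 1393 CPM) and Cd14 (1523 and 1838 CPM). Ccr2, the receptor that brings monocytes from the marrow, had 214 CPM in iIRE cells and 197 CPM in control cells. Of 11 non-classical monocyte genes, Apoc2 was past 1.2-fold higher and Cx3cr1 lower, with Nr4a1 at 454 and 475 CPM, Cx3cr1 at 200 and 259 CPM and Apoc2 at 193 and 135 CPM.

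Of 25 macrophage differentiation genes, 5 were higher and 1 lower, with a median of 0.01, and the abundant Apoe (10034 CPM in iIRE cells and 11466 CPM in control cells), C1qb (4702 and 4909 CPM) and C1qa (4075 and 4471 CPM) were slightly lower. Of 27 type I interferon response genes, 13 were higher and 3 lower, with a median of 0.26, among them Ifi27l2a (2923 and 1646 CPM), Bst2 (731 and 563 CPM) and Isg15 (200 and 161 CPM). Rsad2, named after its value was seen, was lower at 36.0 CPM in iIRE cells against 72.5 CPM in control cells.

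Relatives of the members were mixed. Among 5 other Schlafen genes counted, Slfn5 (76.6 and 53.4 CPM), Slfn1 (53.9 and 31.2 CPM) and Slfn8 were higher in the iIRE library, and Slfn2 stood at 328 and 311 CPM. Of the other Ly6 genes, Ly6e had 2049 CPM in iIRE cells and 1259 CPM in control cells, and Ly6i 14.0 and 12.4 CPM. Of 12 secondary and tertiary granule genes, Mmp9, Fpr1 and Lcn2 were higher and Padi4 lower, names given after their values were seen. The 3 most abundant did not pass, with Cyba at 1839 and 1694 CPM, Cybb at 502 and 468 CPM and Itgb2 at 270 and 250 CPM. Of 22 further genes of the provisional matrix and coagulation, 4 were higher and 6 lower, and of the 3 most abundant Spp1 alone passed, with Spp1 at 1406 and 1067 CPM, S100a10 at 991 and 847 CPM and Anxa2 at 734 and 703 CPM.

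Outside the macrophage/monocyte-like class, the members had other homes. Neutrophil-like cells were the richest in Slfn4 and Hp. Slfn4 reached 1237 CPM in their iIRE cells and 816 CPM in their control cells (1.52-fold, 1.24 to 1.85), and Hp 931 and 727 CPM (1.28-fold, 1.03 to 1.60). The number of neutrophil-like cells was nearly the same, 145 and 142. Thinned to 1000 UMIs, Slfn4 was seen in 44.1% of the iIRE and 39.4% of the control cells, and Hp in 46.2% and 38.7%, so the intervals of both shares overlapped.

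Plac8 had 315 CPM in iIRE neutrophil-like cells and 109 CPM in control ones, from 67 and 22 UMIs. Ly6c2 had 212 and 104 CPM, but 15 of the 21 control UMIs came from a single cell. Of the 4 members with enough UMIs to count in this class, 4 were past 1.2-fold higher, where 28.0% of the 1133 genes counted were.

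In dendritic-like cells Ly6a stood at 457 CPM in the iIRE library and 100 CPM in the control library, a fold of 4.57 (3.61 to 5.80). It was seen in 27.6% of 58 thinned iIRE cells and 11.8% of 136 control cells, and a single iIRE cell gave 67 of the 213 UMIs. Fn1 had 337 and 89.3 CPM, with 74 of the 157 iIRE UMIs in a single cell. Plac8 had 331 CPM in iIRE cells and 217 CPM in control cells. These 3 members were past 1.2-fold higher, where 18.0% of the 4012 genes counted were. Hp and Slfn4 had no UMI in the 64 iIRE cells (0 UMIs, which allows up to 6.44 CPM) and 3 and 5 UMIs in the control cells.

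Osteoclast-like cells held few UMIs of most of the monocyte genes, and most of these genes were lower there in the iIRE library. F13a1 was higher, with 18 and 5 UMIs, but 13 of the 18 came from a single cell. Ly6c2 had no UMI in 235 iIRE cells and 8 UMIs in 155 control cells, and Plac8 had 3 and 19. Ly6a had 20.6 CPM in iIRE cells and 36.6 CPM in control cells (fold 0.563, 0.402 to 0.786). A single control cell gave 35 of the 85 control UMIs, and the gene was seen in 10.6% of iIRE and 12.3% of control cells. Fn1 had 101 and 128 CPM, with 48 of the 322 iIRE UMIs and 59 of the 298 control UMIs in single cells. Of the 2 members with enough UMIs to count, 2 were past 1.2-fold lower, where 11.8% of all genes counted were. Both values rest in part on those single cells.

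**Figure D4:**
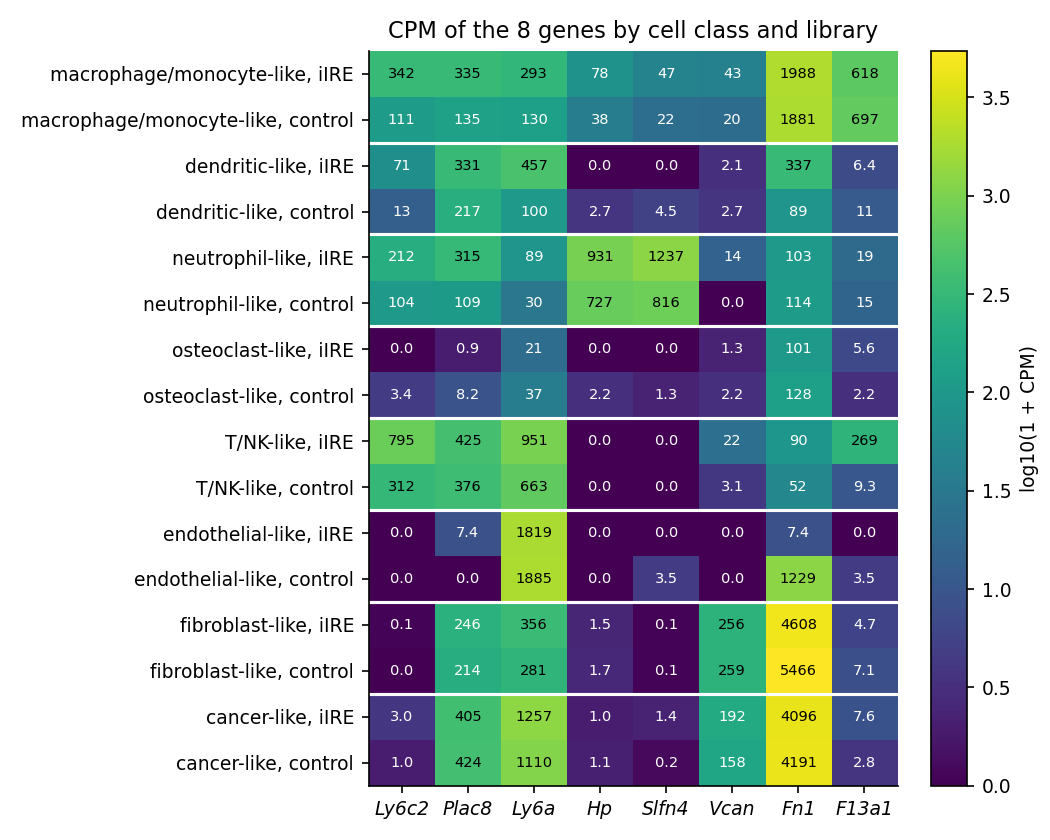
Level of each of the 8 genes in each named cell class except acinar-like cells, with the iIRE library above the control library in each pair. Cells give CPM and color gives log10(1 + CPM). Slfn4 and Hp were highest in neutrophil-like cells (1237 and 816 CPM, 931 and 727 CPM), Ly6a in endothelial-like cells, and Ly6c2 was near 0 in cancer-like cells.

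Over all kept cells, 70.2% of the Ly6c2 UMIs and 73.2% of the F13a1 UMIs came from macrophage/monocyte-like cells. By contrast, cancer-like cells gave 83.1% of the Ly6a UMIs, 79.3% of the Plac8 UMIs, 67.3% of the Fn1 UMIs and 65.2% of the Vcan UMIs. Slfn4 was split between macrophage/monocyte-like (33.7%) and neutrophil-like cells (34.1%). Most of the RNA of Ly6a, Plac8, Fn1 and Vcan was thus in cancer-like cells.

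Ly6a in cancer-like cells had 1257 CPM in the iIRE library and 1110 CPM in the control library, a log2 ratio of 0.18 (1.13-fold, 1.12 to 1.14). Nearly all of these cells carried it, 95.3% of 11740 iIRE cells and 92.2% of 6984 control cells. Thinned, the shares were 80.1% and 74.6%, at 2.69 UMIs per carrying cell in the iIRE library and 2.74 in the control library. The difference was small beside the 2.26-fold in macrophage/monocyte-like cells, and the 2 ratios were not tested against each other.

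The cancer-like class was uneven between the libraries, since cluster 0 held 5343 iIRE cells and 684 control cells. Over the 8 clusters with 25 to 75% iIRE cells, Ly6a stood at 1343 CPM in the iIRE library and 1117 CPM in the control library, a log2 ratio of 0.26. Of 9 cancer-like clusters with at least 20 cells of each library, 8 had more Ly6a in iIRE cells and 3 were past 1.2-fold. Cluster 16 differed most, at 1202 CPM in iIRE cells and 739 CPM in control cells, and cluster 3 had 1507 and 1230 CPM. Cluster 23 was the exception, at 1051 CPM in iIRE cells and 1100 CPM in control cells. The 4 Y-linked genes summed to 0 to 0.242 CPM in clusters 2, 3, 6, 7 and 11, to 9.28 and 7.76 CPM in clusters 0 and 8, and to 121 CPM in the macrophage/monocyte-like cluster.

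**Figure D5:**
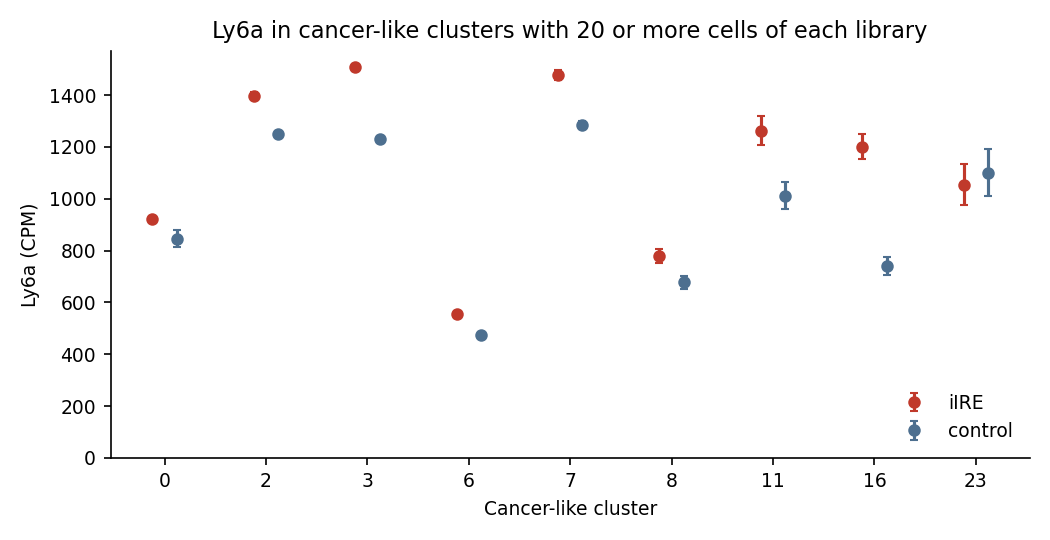
Ly6a level (CPM) in the 9 cancer-like clusters with at least 20 cells of each library, iIRE in red and control in blue, with exact Poisson 95% intervals. The iIRE point lies higher in 8 clusters, most in cluster 16 (1202 and 739 CPM), and lower in cluster 23.

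Plac8 in cancer-like cells had 405 CPM in the iIRE library and 424 CPM in the control library, Vcan 192 and 158 CPM, F13a1 7.64 and 2.83 CPM, and Fn1 4096 and 4191 CPM. Vcan and F13a1 were the 2 of 8 members past 1.2-fold higher there, where 3.44% of all genes were, and none was lower, where 0.728% were. Ly6c2 was 2.96 and 1.01 CPM there, while its near-copy Ly6c1 was 241 and 207 CPM. In endothelial-like cells (15 iIRE and 21 control cells) Ly6c1 had 1245 and 1114 CPM and Ly6c2 had no UMI, whereas in macrophage/monocyte-like cells Ly6c1 had 20 and 11 UMIs beside 2020 and 762 of Ly6c2. Despite their identical runs, the genes were thus counted in different cells.

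Lymphocytes carried some members too. The T/NK-like class, with 23 iIRE cells and 76 control cells, had 795 and 312 CPM of Ly6c2 and 951 and 663 CPM of Ly6a. Acinar-like cells, 27 in the iIRE and 25 in the control library, had 1275 and 602 CPM of Ly6a. Fibroblast-like cells had 4608 CPM of Fn1 in the iIRE library and 5466 CPM in the control library, and 256 and 259 CPM of Vcan. Most of that class lies in cluster 4, where Cdkn2a, a cancer marker, stood at 992 CPM and the Y-linked genes summed to 0.050 CPM. Cancer-like cluster 2 had 1566 and 0.242 CPM, whereas cluster 24, the other fibroblast-like cluster, had 59.9 and 117 CPM. The class values therefore cannot be taken as those of host fibroblasts.

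Across the 35 clusters of all cells, the genes most like each member by Pearson r of log2(CPM + 10) were read as a description, since clusters share libraries and free RNA. Slfn4 was most like C5ar2, Fpr1 and Fpr2 (r = 0.98, 0.97 and 0.97), chemoattractant receptors of neutrophils. F13a1 was most like Ccl12, Cbr2 and Pf4 (0.92, 0.88 and 0.87), and Ly6c2 like Slc28a2, Atp8b4 and Gpr160 (0.92, 0.85 and 0.84). Vcan was most like Col6a3, Zcchc24 and Kirrel (0.98, 0.97 and 0.97), Fn1 like Dpysl3, App and 9530068E07Rik (0.93 each), and Hp like Samd15, Chil1 and Tgm1 (0.94, 0.90 and 0.89). Ly6a was nearest to S100a16, Gnas and Ly6c1 (0.80, 0.79 and 0.79) and Plac8 to Sri, Cc2d1a and Celf2 (0.78, 0.76 and 0.74). Among members, Vcan and Fn1 ran together (0.93), as did Hp and Slfn4 (0.80), while Ly6c2 and Ly6a did not (-0.34). These r values are over clusters of all cells. Within macrophage/monocyte-like cells Ly6a was seen more often in cells with Ly6c2.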

How the data were processed

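Tumors were profiled by 5′ single-cell RNA sequencing, 1 iIRE and 1 control library. The authors deposited one table of UMI counts per gene and barcode, not normalized, made with Cell Ranger (version 7.0.1 in the matrix header) and STAR on mm10. The barcode ending gave the library. Library totals were 222153118 UMIs in 19433 iIRE barcodes and 247105192 UMIs in 18538 control barcodes, and 458 barcode sequences occurred in both.

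Cells needed 200 genes, 1000 UMIs, log10 genes over log10 UMIs of 0.7, and at most 5% mitochondrial and 5% hemoglobin UMIs. Doublets were removed by similarity to simulated sums (0.8% per 1000 cells, 2836 iIRE and 2538 control cells). Clustering used 2000 variable genes without the 8 members, 30 components, 20 neighbors and Leiden at resolution 1.0 (leidenalg 0.10.2), and macrophage/monocyte-like cells were clustered again on 20 components. Classes were named by at least 3 markers among 50 leading genes. The rule that named most cancer-like clusters, and the one that left clusters led by neutrophil granule genes unnamed, were added after the clusters were seen. Library imbalance in the cancer-like class is given beside its results.

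UMIs were summed per class and library. Ratios were log2((iIRE CPM + 10)/(control CPM + 10)), and a fold is the plain CPM ratio. Genes with at least 50 UMIs were counted, and past 1.2-fold was used as the size of note. Intervals (95%) were exact Poisson, Clopper-Pearson or conditional binomial and cover counting error only. Thinning drew UMIs without replacement, and left out 48 iIRE and 56 control macrophage/monocyte-like cells at 2000 UMIs. A count of 0 was taken to allow up to 3. The procedures were tested on simulated data.

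The members and gene lists were chosen with earlier results of these data known. Named genes were all members, the 3 most abundant of each list, and the 3 most like each member. Alternatives were: doublets kept, 10% mitochondrial UMIs, resolution 2.0, members in the clustering, 1 CPM added, TMM scaling (edgeR 4.0.16), 2-fold, no UMI minimum, thinning to 1000 UMIs or none, and subclusters at resolution 0.5 and 2.0. Leaving out cells richest in a gene, leaving out or adding a doubtful cluster and restricting the cancer-like clusters were chosen after seeing the data.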

Additional observations from a re-analysis of the deposited data

Results flagged for a closer look

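In 5 genes the iIRE-to-control difference was past 1.2-fold in opposite directions in 2 myeloid classes. The counting interval of the fold left out 1 in each class, and the difference was not tested with 1 library per group. How many of all genes meet this rule was not counted, so nothing is read from the number of genes. In osteoclast-like cells 16.3% of all genes counted were past 1.2-fold higher and 11.8% lower. For Ly6c2, Plac8, Ly6a and Hp the macrophage/monocyte-like side is what they were chosen for. Ly6c2 had a log2 ratio of 1.54 in macrophage/monocyte-like cells, and in osteoclast-like cells 0 UMIs in the iIRE library against 8 in the control library, at least 3.68-fold lower against the limit of 3 counts over the iIRE class. Plac8 had log2 ratios of 1.25 and -0.73, and Ly6a of 1.12 and -0.61, in the same classes. Hp had 0.89 in macrophage/monocyte-like cells and no UMI in iIRE osteoclast-like cells against 5 in control ones, at least 2.30-fold lower. Fn1 had 1.80 in dendritic-like cells, where a single cell gave 74 of 157 iIRE UMIs, and -0.32 in osteoclast-like cells. For Ly6c2, Plac8 and Hp the osteoclast-like values rest on 8, 22 and 5 UMIs in all. For Ly6a and Fn1, single control osteoclast-like cells gave 35 of 85 and 59 of 298 control UMIs.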

How the results depend on the processing

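No paired analysis was possible because each group is 1 library. The count of 6 members past 1.2-fold in macrophage/monocyte-like cells held under every alternative but a 2-fold limit, which 3 members passed, where 0.0719% of all genes did. The 6 members with a higher share of cells, and the 10 classical monocyte genes (7 to 13), kept within 1.5 times. The Ly6a log2 ratio in cancer-like cells, 0.18, was 0.21 with doublets kept, 0.24 at 10% mitochondrial UMIs, 0.24 with members in the clustering, 0.10 with TMM scaling and 0.26 in clusters of 25 to 75% iIRE cells. The log2 ratio of the share of monocyte-led cells, 0.85, was 0.26 with doublets kept and 0.28 with members in the clustering, and F13a1 within those cells had a log2 ratio of 0.17 and 0.046 under these settings in place of -0.34, while Ly6c2 had 1.07 and 1.19 in place of 0.61 and Ly6a 0.52 and 0.65 in place of 1.67. The cause was not tested. The Plac8 level per carrying cell was 0.46 on the log2 scale at 2000 UMIs, 0.04 at 1000 UMIs and 0.70 without thinning, that of Ly6c2 was 0.15, 0.20 and 0.50, and that of Hp 0.20, 0.057 and 0.52. Of 246 other values, 212 stayed within the limit set for them. For most the limit was the counting interval. For list medians it was 1.2-fold, and for the count of interferon response genes 1.5 times. Shares of rare genes such as Vcan and Hp are limited by depth.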
